A study of Mus musculus with 4 samples.

Results

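The nuclei described here are excitatory neurons of the mouse hippocampal dissection that hold messages of both Hs3st4, a heparan sulfate 3-O-sulfotransferase, and Foxp2, a forkhead transcription factor. A barcode of at least 5000 unique molecular identifiers (UMIs, one per captured RNA molecule) was taken when it held at least 5 Hs3st4 UMIs, at least 2 Foxp2 UMIs and at least 1 Slc17a7 UMI. Barcodes with more than 2 Tshz2 UMIs, more than 1 Prox1 UMI or more than 1 UMI of Gad1 and Gad2 together were left out. This rule took 293 of 32572 nuclei. The members were chosen by the measured UMI counts of these 7 genes in the same nuclei, so the levels of the 7 genes, and of other genes against other nuclei, are given as a description without a test. In the comparison of genotypes the 7 genes stayed in the fit over all genes but are in none of the counts of tested genes per list below. Some of them are in sums of cell type markers, as stated there.

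Nuclei were isolated from the hippocampi of adult mice and sequenced as 4 single-nucleus libraries (10x Genomics Chromium). Control was Kat6a-f/f, in which Kat6a is flanked by loxP sites, with 2 libraries. Kat6a-cKO was NEX-cre, Kat6a-f/f, with 2 libraries, so both genotypes carry the floxed allele and only Kat6a-cKO carries the Cre. NEX-cre is driven from the Neurod6 locus, which is active in excitatory neurons of the forebrain. KAT6A is a histone acetyltransferase. The labels do not say that the libraries of a genotype came from separate mice, so p-values measure the spread between these libraries only, which may be technical.

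Hs3st4 and Foxp2, with the corepressor Tle4, mark neurons of the deepest layer of the cerebral cortex. Many of those neurons send axons to the thalamus and are called corticothalamic, and a thin band below them, layer 6b, holds neurons descended from the subplate. A hippocampal dissection can carry adjoining cortex and subicular tissue with it, and the labels do not say how the tissue was trimmed.

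The libraries held 171323466 to 186897245 counts and 7911 to 8442 nuclei of at least 5000 UMIs. Pairs of libraries shared 15 to 20 nuclear barcodes. There were 47 and 51 members in the Control pair and 111 and 84 in the Kat6a-cKO pair. Their summed counts were 1063049 and 858542 (Control) and 2102923 and 1384357 (Kat6a-cKO), so the Control sums were the shallower ones. Scrublet called 2 and 1 members as doublets in the Control pair and 9 and 1 in the Kat6a-cKO pair, and these were kept.

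The members did not all carry the corticothalamic signature. Leiden clustering divided them into 10 groups, and in 5 of these groups Tle4 was raised at least 2-fold over all other nuclei, with 6 to 9 of 10 layer 6 corticothalamic markers, Tle4 included. Hs3st4 and Foxp2 were raised in these 5 groups too, but both belong to the rule, and Foxp2 was raised in all 10 groups, so they do not bear on the name. Those 5 groups held 187 members, or 63.8%. The other 5 groups held 106 members in which the label was not borne out by the markers. The 5 groups are called the Tle4-high groups and the whole set the Hs3st4/Foxp2 nuclei, and neither is given a cell type name. Of the 5, group 4 had 1 of these 10 corticothalamic markers among its 10 leading genes and the others had none. Ntsr1, from a separate list of corticothalamic and layer 6b markers, was among the leading genes of group 7, at 66.7 CPM. The leading genes of group 2 held the near-projecting marker Vwc2l and the intratelencephalic marker Rorb.

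Tle4 was at 841 counts scaled to a common total (CPM, the usual unit) in the summed counts of the 5 Tle4-high groups and at 131 CPM in the rest of the members. The 10 corticothalamic markers summed to 4517 and 5166 CPM in the Control pair and 4466 and 4663 CPM in the Kat6a-cKO pair of these groups. Near-projecting nuclei, a class marked by Tshz2 and Vwc2l, held 2579 and 3543 against 3373 and 3291 CPM. These markers were thus higher in the Tle4-high groups but not particular to them. Zfpm2, which encodes a cofactor of GATA factors, was at 2283 against 422 CPM. Sulf1, which encodes a secreted enzyme that removes 6-O-sulfate from heparan sulfate, was at 166 against 10.9 CPM. Dpp10, which encodes an auxiliary subunit of Kv4 potassium channels, was at 20107 against 2448 CPM. Each of these 4 genes was higher in the Tle4-high groups, as were 59.8% of all genes tested between genotypes. Tle4, Zfpm2 and Sulf1 are among the markers by which these groups were set apart. Their higher level there follows at least in part from that choice. Dpp10 is not among those markers, but the groups were formed by clustering on gene levels of these same nuclei. Its difference between groups is therefore a description too.

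**Figure D1:**
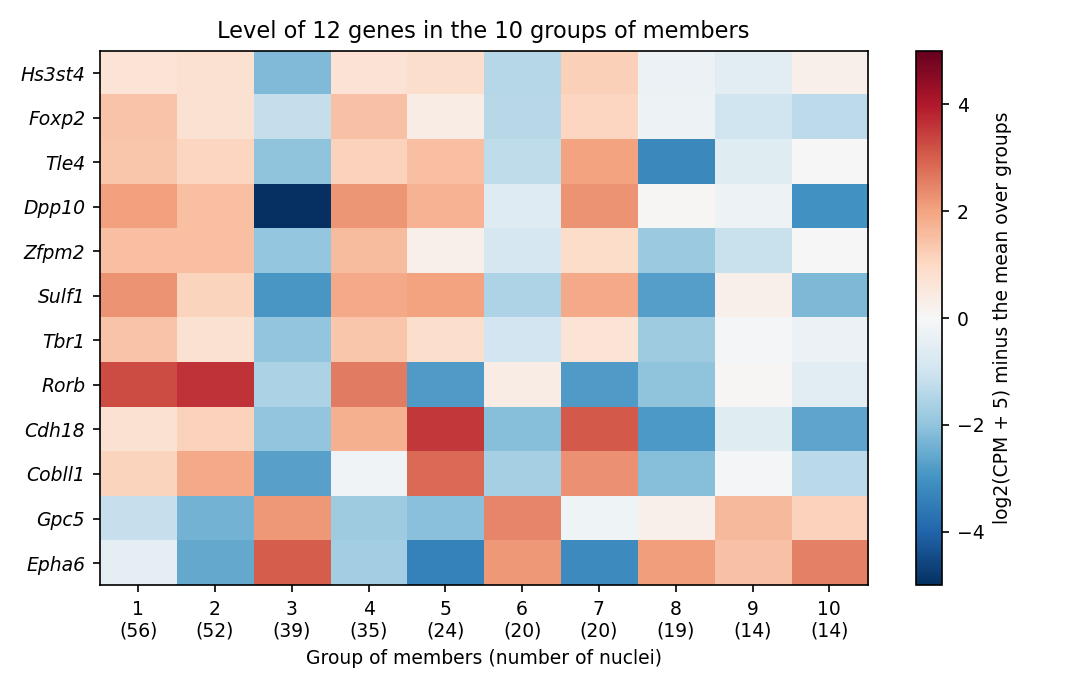
Level of 12 genes (rows) in the 10 groups of members (columns, with the number of nuclei), as log2(CPM + 5) minus the mean of the gene over groups. Groups 1, 2, 4, 5 and 7 are high in Hs3st4, Foxp2, Tle4 and Dpp10, and groups 3 and 6 are low in all 4.

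Among the Tle4-high groups, groups 1, 2 and 4 shared Rorb, a nuclear receptor gene, at 338, 430 and 211 CPM, while groups 5 and 7 held no Rorb count. Group 1 (56 nuclei) led with the serotonin receptor gene Htr2c at 612 CPM against 66.8 CPM in all other members, and with Rmst, a long noncoding RNA, at 1469 against 227 CPM. Group 2 (52 nuclei) led with Mctp2 and with Kcnh8, a voltage-gated potassium channel gene, at 115 against 7.14 CPM. Group 4 (35 nuclei) led with the synaptotagmin gene Syt6, at 40.0 CPM. Its layer 6 corticothalamic markers were raised in 9 of 10 cases, the highest number of any group.

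Group 7 (20 nuclei) had markers of both layer 6b and layer 6 corticothalamic neurons raised, and these do not decide between the names. It had 4 of 6 layer 6b markers raised, namely Ccn2 at 54.6 CPM, Cplx3 at 24.3 CPM, Moxd1 at 45.5 CPM and Drd1 at 39.4 CPM. Nxph4 and Nr4a2 were not raised. It also had 7 of 10 layer 6 corticothalamic markers raised, Syt6 included. The opioid receptor gene Oprm1 (194 CPM against 12.4 CPM in all other members) and the orexin receptor gene Hcrtr2 were among its 5 leading genes.

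Group 5 (24 nuclei) held no Control nucleus. It had 20 members from Kat6a-cKO 1 and 4 from Kat6a-cKO 2. It led with the semaphorin gene Sema3c, the histamine receptor gene Hrh1 and the homeobox gene Meis2, at 653 CPM against 66.2 CPM. Rspo2 was at 20.3 CPM in group 5 and between 194 and 349 CPM in the other 4 Tle4-high groups. At a clustering resolution of 1.0 the same 24 nuclei formed a group of their own, while at 0.3 they fell with the 20 nuclei of group 7 into 1 group of 44, which held 2 and 3 nuclei in the Control pair against 26 and 13 in the Kat6a-cKO pair. No test of group sizes between genotypes was made, because the clustering used genes that also differ between the libraries.

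Outside the Tle4-high groups, group 3 (39 nuclei) had 4 of 5 CA1 markers raised, but its 10 leading genes held no CA1 marker and 1 thalamic marker, Plekhg1, and it was given no name. It held Dpp10 at 83.9 CPM and Tle4 at 73.5 CPM. Group 10 (14 nuclei) was CA3-like, with 5 of 6 CA3 markers raised. Groups 6, 8 and 9 (20, 19 and 14 nuclei) were not named either. These 5 groups had median UMI counts of 21445 to 28792 per nucleus, against 12042 to 19068 in the Tle4-high groups, and the part of depth in their passing the rule was not tested. In 81 members Foxp2 stood at exactly 2 UMIs, and Tle4 was at 269 CPM in them. Just outside the rule, 483 nuclei with 1 Foxp2 UMI held 176 CPM of Tle4, and the 139 members with at least 5 Foxp2 UMIs held 690 CPM. Hs3st4 and Tle4 were not confined to the members. Of excitatory nuclei outside the members, 79.5% and 83.1% in the Control pair and 84.1% and 86.1% in the Kat6a-cKO pair held Hs3st4. For Tle4 these shares were 72.6% and 68.5% against 69.0% and 64.8%.

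**Figure D2:**
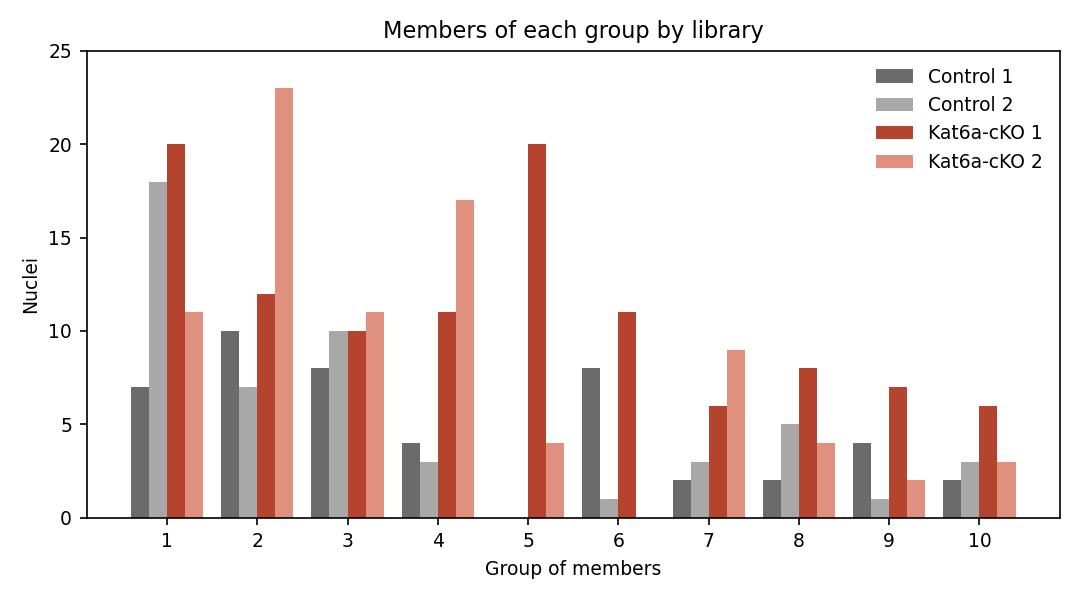
Number of members (vertical axis) in each of the 10 groups (horizontal axis), with 1 bar per library. Group 5 has 20 and 4 nuclei in the Kat6a-cKO libraries and none in Control, and group 6 has 8 and 11 nuclei in Control 1 and Kat6a-cKO 1 against 1 and 0 in the other libraries.

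Genes were ranked by their ratio to 13721 other excitatory nuclei that passed the same limits. Only the 5011 genes with at least 20 CPM in the members of every library were ranked, and the rule's genes were left out. Of these, the 20 genes with the largest ratio were at least 10.0 times higher in the members. The 20 were picked by this ratio in the same members, so the counts that follow are a description. All 20 were also higher in the Tle4-high groups than in the rest of the members, as were 58.9% of the 5011 genes they were picked from. Against 961 near-projecting nuclei, a class marked by Tshz2 and Vwc2l, 11 were higher in the members, as were 48.7% of the 5011 genes. Dpp10 had 6754 and 11005 CPM in the Control members and 11742 and 13612 CPM in the Kat6a-cKO members, against a mean of 328 CPM in other excitatory nuclei and 3516 CPM in near-projecting nuclei. Lpar1, a lysophosphatidic acid receptor gene, averaged 60.2 CPM in the members against 5.2 CPM in other excitatory and 7.59 CPM in near-projecting nuclei.

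Of the 20 leading genes, Hs3st5 and Sulf1 encode enzymes that modify heparan sulfate. The share of such genes among the 5011 was not counted. Hs6st3, another such gene, was not among the 20 and was lower in the Tle4-high groups than in the rest, as given below. Hs3st5, another 3-O-sulfotransferase gene, had 135 and 158 CPM in the Control pair against 150 and 217 CPM in the Kat6a-cKO pair, against 7.7 CPM in other excitatory and 54.2 CPM in near-projecting nuclei. Sulf1 had 58.3 and 69.9 CPM in the Control pair against 101 and 99.7 CPM in the Kat6a-cKO pair, against 3.6 and 27.2 CPM in those classes. The ratios to other excitatory nuclei were 21.5 for Hs3st5 and 22.9 for Sulf1.

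The leading genes also held Chrm2, Grik3 and Grm8. Chrm2, the M2 muscarinic receptor gene, averaged 78.3 CPM in the members against 3.05 CPM in other excitatory nuclei. The kainate receptor gene Grik3 averaged 207 against 14.1 CPM, and the metabotropic glutamate receptor gene Grm8 averaged 1202 against 118 CPM. In near-projecting nuclei the means of these 3 genes were 172, 262 and 1337 CPM, each above the mean of the members.

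The members made up 0.569% and 0.641% of nuclei in the Control libraries and 1.31% and 1.06% in the Kat6a-cKO libraries. The exact (Clopper-Pearson) 95% intervals were 0.418 to 0.756% and 0.477 to 0.841% for the Control pair, with 1.08 to 1.58% and 0.848 to 1.31% for the Kat6a-cKO pair, and they cover counting error only. Both Kat6a-cKO libraries were above both Control libraries. The mean share was 0.605% ± 0.0505 (SD, n = 2) in Control and 1.19% ± 0.179 in Kat6a-cKO, a ratio of 1.96. The two-sided exact permutation test gave p = 0.3333, the smallest value that 2 libraries against 2 allow. With at least 3 Tle4 UMIs also required, a limit added after the data were seen, the mean shares were 0.451% ± 0.0553 and 0.885% ± 0.0718.

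Other classes shifted in the same libraries. Near-projecting nuclei made up 2.86% and 2.02% in the Control pair against 3.3% and 3.6% in the Kat6a-cKO pair. Granule-type nuclei, with at least 5 Prox1 UMIs, made up 10.4% and 10.0% in the Control pair against 6.54% and 6.80% in the Kat6a-cKO pair. These shares share a denominator, and how much adjoining cortex each dissection held was not measured. Its part in the result was not tested.

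**Figure D3:**
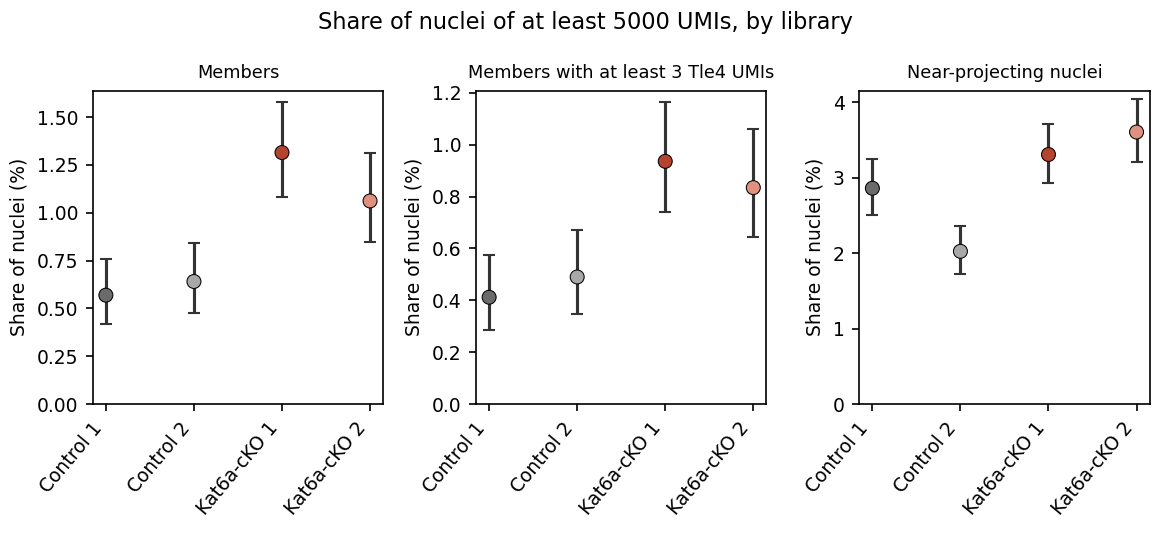
Share of nuclei of at least 5000 UMIs (vertical axes, percent) for the members, for members with at least 3 Tle4 UMIs and for near-projecting nuclei, with 1 point per library and exact 95% binomial intervals. The members' share is at most 0.641% in the Control libraries and at least 1.06% in the Kat6a-cKO libraries.

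The genotype check used the Cre locus. Counts of the Cre transgene in the members were 0 and 0 in the Control pair and 4 and 1 in the Kat6a-cKO pair. Gm3279, a long noncoding RNA gene at chromosome 6, 55684571 to 55694574 (plus strand, GENCODE M21), lies beside Neurod6, which starts at 55677822. It had 0.984 and 4.62 CPM in the Control pair against 24.7 and 26.1 CPM in the Kat6a-cKO pair, after TMM scaling, which is used for all genotype values below. The log2 fold change was 3.21 (SE 0.52), with an adjusted p of 0.00788 by edgeR. Gm3279 passed in 12 of the 15 alternatives that tested it. It lost the call with DESeq2, with the replicate block and with the stricter marker minimum. Gm3279 also passed the threshold in other excitatory nuclei (log2 fold change 4.79) and in near-projecting nuclei (3.95).

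Kat6a had 83.6 and 67.0 CPM in the Control pair against 64.8 and 75.4 CPM in the Kat6a-cKO pair, with overlapping libraries and a log2 fold change of -0.12 (SE 0.20). The counts are per gene and the labels do not name the floxed exons, so this value does not check the deletion. Its direction turned to 0.06 without Control 1 and to 0.05 with at least 3 Tle4 UMIs. Its paralog Kat6b had 235 to 264 CPM in the 4 libraries. Neurod6 had 28.5 and 37.0 CPM in the Control pair against 31.2 and 25.4 CPM in the Kat6a-cKO pair.

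In the Hs3st4/Foxp2 nuclei, 22 of 8791 genes tested passed an adjusted p of 0.05 between genotypes, 19 higher and 3 lower in Kat6a-cKO, by the edgeR quasi-likelihood test. These are 0.25% of the genes tested, with 0.216% higher and 0.0341% lower. At an unadjusted p of 0.05, 670 genes (7.62%) passed. Both libraries of a genotype lay beyond both of the other for all 22, as they did for 36.2% of all genes tested. The count rested on each library: it was 58 without Control 1, 131 without Control 2, 67 without Kat6a-cKO 1 and 74 without Kat6a-cKO 2. In bulk sums of this kind, a change in the mix of nuclei and a change within each nucleus cannot be told apart.

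The mix of members differed between libraries. The Tle4-high groups made up 48.9% and 60.8% of the members in Control and 62.2% and 76.2% in Kat6a-cKO. With group 5 left out these shares were 48.9% and 60.8% against 53.8% and 75.0%, which overlap, and none of them was tested. Of the 19 higher genes, 17 were higher in the Tle4-high groups than in the rest of the members, as were 59.8% of all genes tested, and the 2 exceptions were Sox2ot and Tmem163. All 3 lower genes were higher in the rest. Of 20 marker lists of cell types, the summed level in the members was higher in both Kat6a-cKO libraries for 6, lower in both for 5 and overlapped for 9. Single genes lay apart in either direction for 36.2% of all genes tested, and the sums were not tested. The near-projecting, dentate granule and inhibitory lists, all among the 9, hold Tshz2, Prox1, Gad1 and Gad2 of the rule. Higher were the corticothalamic markers (2173 and 2808 CPM in the Control pair against 2878 and 3287 CPM), the thalamic markers (626 and 622 against 697 and 693 CPM), the oligodendrocyte markers (69.6 and 85.0 against 97.5 and 122.8 CPM) and those of layer 6b, intratelencephalic and Cajal-Retzius neurons. Lower were the CA1 markers, at 1116 and 1134 CPM in Control members and 1000 and 952 CPM in Kat6a-cKO members, and those of CA3, layer 5 extratelencephalic neurons, astrocytes and choroid plexus. The part of these other markers in the genotype results was not tested. The level of 10 of the 19 higher genes was highest in group 5 and that of 7 in group 7, against 9.73% and 13.6% of all genes tested. Group 5 held no Control nucleus, so it adds to the Kat6a-cKO sums only. The 19 genes were chosen as higher in Kat6a-cKO in these same nuclei. A highest level in group 5 is favoured by that choice, so these counts are a description. The 10 genes included Gm3279, which was also higher in other excitatory and near-projecting nuclei.

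Within the Tle4-high groups alone, both Kat6a-cKO libraries were above both Control libraries for 17 of the 19 higher genes, against 18.1% of all genes tested, and Inpp4b and Tmem163 overlapped. With group 5 also left out this held for 15 of the 19, against 17.5% of all genes, and Cdh18 and Il1rapl2 overlapped as well. The 19 genes were chosen on these same libraries, so these counts are a description. Of the 3 lower genes, Gm44593 had 0 and 0 counts in the Control pair against 1 and 1 in the Kat6a-cKO pair within the Tle4-high groups, and Tmem150b had 1 and 3 against 0 and 2, too few to give a direction.

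Cobll1 was the gene of smallest p. It had 26.6 and 28.9 CPM in the Control pair against 154 and 125 CPM in the Kat6a-cKO pair, a log2 fold change of 2.34 (SE 0.22, adjusted p = 4.84e-05 by edgeR). The Kat6a-cKO libraries were both more than 4 times as high as either Control library. With the group 5 nuclei left out, Cobll1 had 25.4 and 29.1 CPM in the Control pair against 97.7 and 109.5 CPM in the Kat6a-cKO pair, before TMM scaling. Cobll1 spans chromosome 2, 65088339 to 65239403 (minus strand) and was the only one of the 22 genes past the threshold in every one of 16 alternatives.

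The cadherin gene Cdh18 had 749 and 705 CPM in the Control pair against 1893 and 1461 CPM in the Kat6a-cKO pair, a log2 fold change of 1.21 (SE 0.16). Without group 5 it had 716 and 711 against 799 and 1227 CPM, a log2 ratio of 0.51 in place of 1.20. Thsd7b, a thrombospondin repeat gene, had 367 and 341 CPM in the Control pair against 955 and 821 CPM in the Kat6a-cKO pair. Its log2 ratio fell from 1.32 to 0.72 without group 5. Thsd7b lost the call with the looser marker minimum, where its log2 fold change was 0.38, and Cdh18 lost it with the stricter one (adjusted p = 0.0625 by edgeR). Groups of libraries did not overlap for either gene with or without group 5.

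Among transcription factors, Tshz3, a zinc finger gene of the teashirt family, had 59.0 and 47.4 CPM in the Control pair against 130 and 139 CPM in the Kat6a-cKO pair. Its log2 fold change was 1.33 (SE 0.19, adjusted p = 0.00383 by edgeR). It was the only one of 26 tested deep-layer identity factors past the threshold, against 0.25% of all genes, and 7 of the 26 (26.9%) had an unadjusted p under 0.05. Tshz3 lost the call with the stricter marker minimum and with nuclei thinned to 5000 UMIs, at adjusted p-values of up to 0.253 by edgeR. Without group 5 it had 56.4 and 47.8 against 94.8 and 134 CPM, so the libraries still did not overlap. Etv6, an ETS family repressor gene, rose by a log2 fold change of 1.06 (SE 0.21) and passed in 8 of 16 alternatives.

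Gsg1l, which encodes an auxiliary protein of AMPA receptors, had 20.7 and 23.1 CPM in the Control pair against 76.7 and 51.5 CPM in the Kat6a-cKO pair. Inpp4b, a phosphoinositide phosphatase gene, had 66.9 and 35.8 CPM in the Control pair against 104 and 165 CPM in the Kat6a-cKO pair. Mtmr10, of the myotubularin family, had 9.84 and 16.2 against 50.5 and 44.3 CPM. The genotypes did not overlap for any of these 3 genes. All 3 lost the call with DESeq2, with the replicate block, with the looser marker minimum and with nuclei thinned to 5000 UMIs, and Inpp4b passed in 9 of 16 alternatives. The Kat6a-cKO libraries of Inpp4b differed from each other by more than the lower of them differed from Control 1.

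Lypd6b, of the Ly6 family, had no count in either Control library and 32 and 24 counts in Kat6a-cKO. Against a floor of 3 counts per Control library it was at least 5.15-fold higher. Lypd6b passed in 13 of the 14 alternatives that tested it and lost the call with the replicate block (adjusted p = 0.0547 by edgeR). Atp8b1, a phospholipid flippase gene, had 3 and 0 counts in the Control pair against 50 and 25 in the Kat6a-cKO pair. It passed in 10 of the 15 alternatives that tested it. Both were at their highest in groups 5 and 7, at 42.9 and 88.0 CPM for Lypd6b.

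The remaining higher genes had log2 fold changes of 0.85 to 1.68. They were Gm15155, Sox2ot, Tmem163, Lhfpl3, 6530403H02Rik, Pcsk5, Sgcz and Il1rapl2. Sox2ot passed in 6 of 16 alternatives and Tmem163 in 8, and both lost the call with RLE size factors, with DESeq2 and without Scrublet doublets. Pcsk5 passed in 10, and the other 5 in 13 to 15. Lhfpl3, at 83.6 and 77.4 CPM in the Control pair against 168 and 194 CPM in the Kat6a-cKO pair, was most abundant in group 7, at 977 CPM. Sox2ot was most abundant in the CA3-like group 10, at 136 CPM, and overlaps 14 other annotated genes, so its counts are uncertain. Over the 18 higher genes with any Control count, log2 ratios without group 5 ran from 0.51 to 2.99, and 15 of the 18 ratios were smaller than with group 5. The libraries of the 2 genotypes stayed apart for all 19, against 17.5% of all genes tested with both Kat6a-cKO libraries higher.

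Of the 3 lower genes, Gpc5 encodes a glypican, a heparan sulfate proteoglycan of the cell surface. It had 533 and 393 CPM in the Control pair against 259 and 151 CPM in the Kat6a-cKO pair, a log2 fold change of -1.16 (SE 0.21, adjusted p = 0.0193 by edgeR). Within the Tle4-high groups Gpc5 was at 52.6 and 49.6 CPM in the Control pair against 55.6 and 50.5 CPM in the Kat6a-cKO pair, while the rest of the members held 536 CPM. With group 5 also left out the Kat6a-cKO values were 65.7 and 55.0 CPM, both above the Control pair. The lower level of Gpc5 was thus not seen within these groups, but they held little of it. They had 19 and 19 Gpc5 counts in the Control pair against 58 and 44 in the Kat6a-cKO pair. Its level per library in the rest of the members, where it was more abundant, is not given here. The part of the mix of members in its fall was not tested. Gpc5 lost the call with DESeq2, without Scrublet doublets, with thinned nuclei and under both other marker minimums. Gm44593 had 54.1 and 20.8 against 10.4 and 5.08 CPM and was highest in group 6. It passed in 8 of the 14 alternatives that tested it. Tmem150b had 32.5 and 19.6 against 0.495 and 1.45 CPM and was highest in group 9. It lost the call with the looser marker minimum (adjusted p = 0.167 by edgeR) and with at least 3 Tle4 UMIs, and passed in 12 of the 14 alternatives that tested it.

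**Figure D4:**
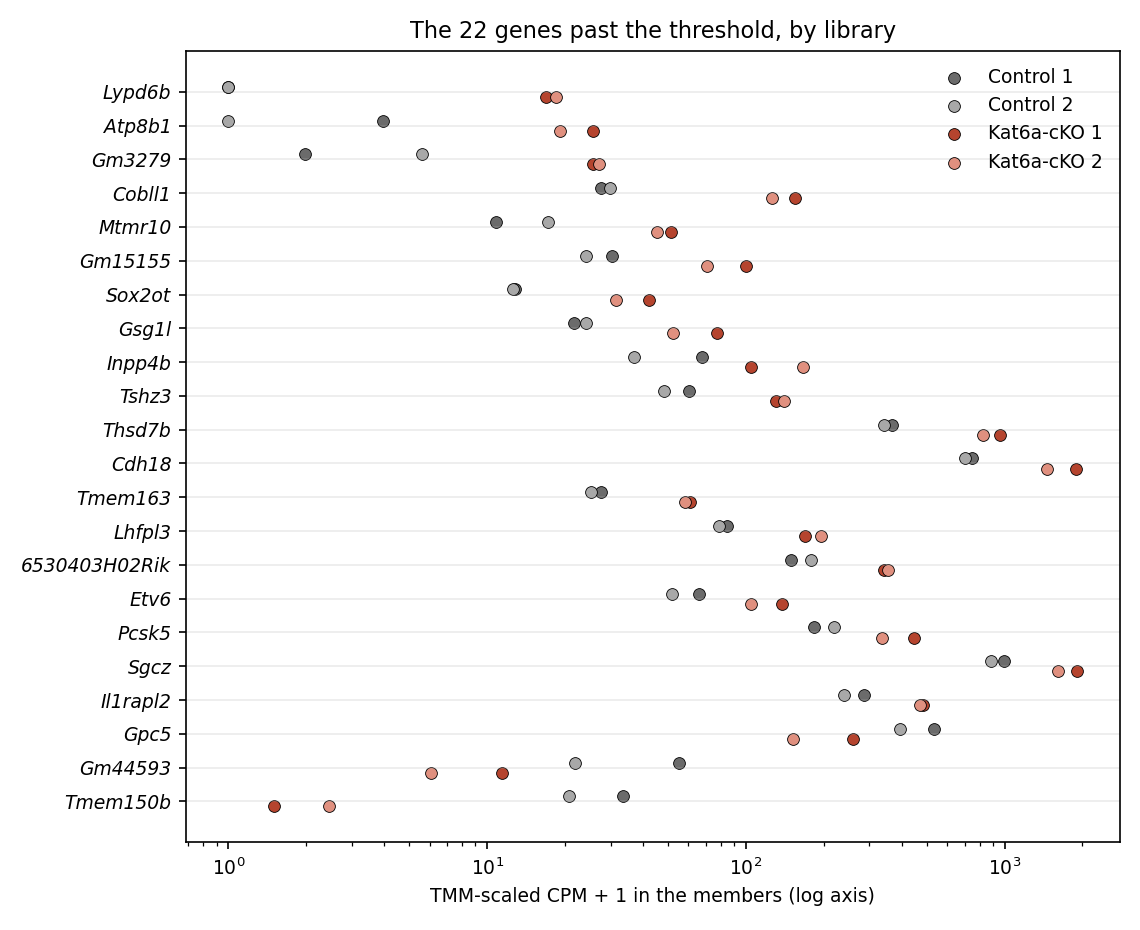
TMM-scaled CPM plus 1 in the members (horizontal log axis) for the 22 genes past the threshold (rows), with 1 point per library. The libraries of the 2 genotypes do not overlap for any of the 22 genes, and 3 genes, at the bottom, are lower in Kat6a-cKO.

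In the gene lists, 1 of 24 tested genes of heparan sulfate synthesis and proteoglycans passed by edgeR, Gpc5, and 0 by DESeq2, against 0.25% of all genes, and 7 (29.2%) had an unadjusted p under 0.05, against 7.62% of all genes. The list's median log2 fold change was 0.089, against 0.00 over all genes tested. Hs3st4, a gene of the rule, had 2616 and 3524 CPM in the Control pair against 3942 and 4397 CPM in the Kat6a-cKO pair. Hs6st3, a 6-O-sulfotransferase gene, had 2014 and 1704 CPM in the Control pair against 1334 and 1486 CPM in the Kat6a-cKO pair, with a log2 fold change of -0.40 (SE 0.15) that did not pass. Sulf1 had 0.66 (SE 0.19), which did not pass either. Hs6st3 was at 302 CPM in the Tle4-high groups and 2713 CPM in the rest, and Sulf1 was the reverse.

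None of 42 tested axon guidance genes passed, with a list median of 0.05, and 6 (14.3%) had an unadjusted p under 0.05, against 7.62% of all genes. The ephrin receptor gene Epha6 had 4054 and 3227 CPM in the Control pair against 2382 and 2133 CPM in the Kat6a-cKO pair, with an adjusted p of 0.0731 by edgeR, and stood at 299 CPM in the Tle4-high groups against 5041 CPM in the rest. By DESeq2, an alternative test, Epha6 was the 1 gene of this list that passed. None of 30 glutamate receptor genes and none of 34 channel genes passed by edgeR (6 and 5, or 20.0% and 14.7%, at an unadjusted p under 0.05), and 0 of either list passed by DESeq2. Grik3 had a log2 fold change of 0.89 (SE 0.20) and an adjusted p of 0.0759 by edgeR. Among the channels, Kcnip4, a Kv4-interacting protein gene, had -0.49 (SE 0.17) and the Kv4.2 gene Kcnd2 had -0.44 (SE 0.16).

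None of 20 tested neuromodulator receptor genes passed by edgeR and 0 by DESeq2, and 7 (35.0%) had an unadjusted p under 0.05, against 7.62% of all genes. Htr1f had 185 and 232 CPM in the Control pair against 303 and 322 CPM in the Kat6a-cKO pair, while Htr2c had 179 and 196 against 129 and 120 CPM. Of 29 cadherins and contactins, Cdh18 passed and no other, against 0.25% of all genes, and 9 (31.0%) had an unadjusted p under 0.05, 7 of them higher. Of 17 R-spondin and Wnt genes none passed by edgeR and 0 by DESeq2 (3, or 17.6%, at an unadjusted p under 0.05). Rspo2, which encodes a secreted amplifier of Wnt signalling and is named in the series title, had 144 and 161 CPM in the Control pair against 80.6 and 108 CPM in the Kat6a-cKO pair, a log2 fold change of -0.70 (SE 0.18, adjusted p = 0.219 by edgeR). Both Kat6a-cKO libraries were below both Control libraries. Rspo2 was low in group 5, and the part of group 5 in this difference was not tested. Of 5 tested corticothalamic and layer 6b markers, 8 genes of Kat6a, its paralog and complex partners, and 12 immediate early genes, 0 passed by either tool, and 1 (Sulf1), 1 and 3 had an unadjusted p under 0.05, or 20.0%, 12.5% and 25.0%. A list of genes seen earlier to change in CA1, CA3 or dentate nuclei of these same libraries had 9 tested genes, of which Gm3279 passed by edgeR and 0 by DESeq2.

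No gene of the oxidative phosphorylation, ribosomal protein and cytoplasmic message list passed by edgeR and 0 by DESeq2, but 19 of its 20 members had a negative log2 fold change, with a median of -0.61, and 10 (50.0%) had an unadjusted p under 0.05, against 7.62% of all genes. Its summed level was 1113 and 1565 CPM in the Control pair against 851 and 1033 CPM in the Kat6a-cKO pair. The same list had a median of -0.56 in other excitatory nuclei and -0.53 in near-projecting nuclei. These messages mark cytoplasm or free RNA in a preparation of nuclei. Free RNA, estimated from the counts of 5 myelin genes, was 4.26% and 5.53% of the members' counts in the Control pair against 5.69% and 7.78% in the Kat6a-cKO pair. With that profile subtracted 30 genes passed, and all 22 genes were among them. The part of cytoplasmic messages in the genotype results was not tested.

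The genotype difference was set against that in other nuclei of the same libraries by the interaction of class and genotype, with the library as a block. A gene entered this test when it had enough counts in either class, so it could enter through the other class alone. In the members alone 8791 genes had enough counts. How many of the genes that passed had few counts in the members was not counted. Against other excitatory nuclei, 87 of 18493 genes (0.47%) passed, 42 (0.227%) with a higher and 45 (0.243%) with a lower difference in the members. Without Control 1 the count was 42, and without Kat6a-cKO 2 it was 37. Against near-projecting nuclei, 18 of 11378 genes (0.158%) passed. That count was 127 without Control 1, 171 without Control 2, 4 without Kat6a-cKO 1 and 2 without Kat6a-cKO 2.

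Cobll1 differed from both classes, by 1.99 (SE 0.27) on the log2 scale from other excitatory nuclei and by 2.52 (SE 0.26) from near-projecting nuclei. Tshz3 differed by 1.14 (SE 0.22) and 1.66 (SE 0.20). Cdh18 differed from other excitatory nuclei by 1.09 (SE 0.13), and its difference of 0.80 (SE 0.18) from near-projecting nuclei did not pass (adjusted p = 0.131 by edgeR). Gm3279 differed from neither. Rspo2 had -0.08 in other excitatory nuclei and -1.08 (adjusted p = 0.033 by edgeR) in near-projecting nuclei, and its difference between the members and either class did not pass.

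**Figure D5:**
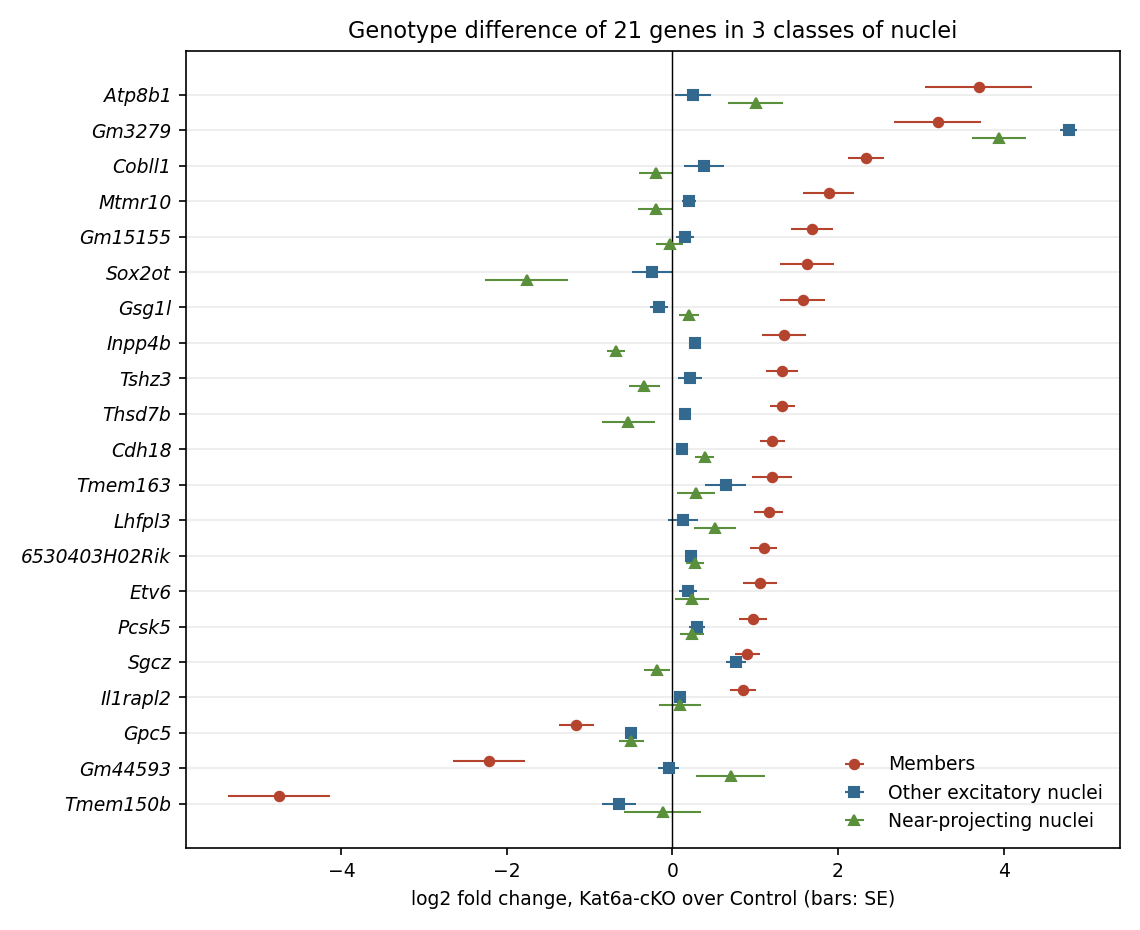
Log2 fold change of Kat6a-cKO over Control (horizontal axis, bars are SE) for 21 of the 22 genes past the threshold in the members, in the members, in other excitatory nuclei and in near-projecting nuclei. Lypd6b, with no Control count in the members, is left out, and Gm3279 is positive in all 3 classes.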

How the data were processed

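The authors deposited raw counts (UMIs) per barcode and gene for 4 libraries, empty droplets included. Per the submitters' processing notes, Seurat 4.0.1 and build mm10 were named. The aligner and annotation are not given in the sources used here. Of 55422 gene IDs, 54673 matched GENCODE M21 (GRCm38) with their version. The members, gene lists and alternatives were chosen with earlier results of these data known.

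Counts of the members were summed per library and compared with edgeR 4.0.16 (R 4.3.3), with TMM scaling, filterByExpr and Benjamini-Hochberg adjustment over all genes tested. The code was tested on simulated data. DESeq2 1.42.0, the other alternatives and leaving out each library are in the closing section. Members were clustered by Leiden (leidenalg 0.10.2, scanpy 1.11.5) on 10 principal components of 2000 variable genes at resolution 0.5, without integration, and fold values for groups had 5 CPM added. Genes named are those past the threshold, up to 3 of highest CPM per list, fixed anchors, the rule's genes and the 20 leading genes. Markers of groups outside this rule, and Hrh1, Sema3c, Mctp2, Kcnh8, Meis2 and Oprm1, were named after their values were seen. Summed members held 858542 counts at the lowest, and intervals cover counting error only.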

Additional observations from a re-analysis of the deposited data

Results flagged for a closer look

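The genotype difference in the Hs3st4/Foxp2 nuclei differed from that in other classes, by the test of the difference itself, for the genes given here. Only genes that had also passed between genotypes in the members of these same libraries are listed. That choice favours a large difference in the members, so the list is a description and not the full result. In full, 87 genes passed against other excitatory nuclei, 42 with a higher and 45 with a lower difference. Against near-projecting nuclei 18 passed. Values are log2 fold changes in the members minus those in the other class. Against other excitatory nuclei, those above 0 were 3.52 for Atp8b1, 1.99 for Cobll1, 1.87 for Sox2ot, 1.74 for Gsg1l, 1.70 for Mtmr10 and 1.53 for Gm15155. They were 1.18 for Thsd7b, 1.14 for Tshz3, 1.09 for Cdh18, 1.07 for Inpp4b and 1.06 for Lhfpl3. They were 0.89 for 6530403H02Rik, 0.87 for Etv6, 0.77 for Il1rapl2 and 0.68 for Pcsk5. Among the genes so chosen, those below 0 were -4.21 for Tmem150b, -2.12 for Gm44593 and -0.67 for Gpc5.

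Against near-projecting nuclei, the differences were 3.30 for Sox2ot, 2.52 for Cobll1, 2.09 for Mtmr10, 2.02 for Inpp4b, 1.78 for Thsd7b and 1.69 for Gm15155. They were 1.66 for Tshz3, 1.07 for Sgcz, -3.06 for Gm44593 and -4.62 for Tmem150b. The fitted values for Lypd6b, 11.29 against other excitatory and 8.69 against near-projecting nuclei, depend on the prior count, since both Control sums of the members are 0.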

How the results depend on the processing

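The count of 22 genes became 82 with no filter on low counts, 34 with at least 10000 UMIs per nucleus, 13 with DESeq2, 13 with the looser marker minimum, 4 with the stricter one and 4 with nuclei thinned to 5000 UMIs. Leaving out 1 library gave 58 to 131 genes, where a lone library is assumed to vary like the others. Against other excitatory nuclei the count of 87 ran from 37 to 113 when 1 library was left out, and against near-projecting nuclei the count of 18 ran from 2 to 171. With no filter on low counts it was 118 against near-projecting nuclei. With the replicate number as a block, 13 genes passed, 12 of them among the 22. Deviations of log CPM from the mean of each genotype correlated at 0.14 between same-numbered libraries over 6763 genes. The opposite pairing gave -0.14, which follows from having 2 libraries per genotype. With 2 pairs the numbers do not establish pairing. None of the alternatives fitted reversed any of the 22 genes it tested. Within the Tle4-high groups, which were not fitted and held little Gpc5, the gene was not lower in Kat6a-cKO. Of the 21 tested with at least 3 Tle4 UMIs, an alternative chosen after seeing the data, 16 passed. Reversed values were seen for 3 genes. Neurod6 ran from -0.37 to 0.0032 when 1 library was left out and was 0.083 under the stricter minimum. Kat6a ran from -0.26 to 0.058 and was 0.050 with at least 3 Tle4 UMIs. Foxp2, a gene of the rule given as a description, ran from -0.042 to 0.33 and was -0.090 under the stricter minimum and -0.019 when nuclei were thinned. The difference in share of 0.583 percentage points kept its direction under every alternative run. The members' sums of 858542 and 1063049 counts in the Control libraries limit calls for genes of low level.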
